A study of Mus musculus with 24 samples.

Results

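A set of 9 genes of adrenergic and cyclic AMP (cAMP) signalling was followed in the inguinal white fat (IWAT) of mice, a subcutaneous depot, across diets that restrict methionine. They were taken by name from the 16821 genes of the deposited tables: the receptors Adrb3, Adrb1 and Adra2a, the adenylyl cyclases Adcy3, Adcy5 and Adcy6, the phosphodiesterase Pde3b, the protein kinase A (PKA) subunit Prkar2b and the PKA anchor Akap1. All 9 were present and all 9 passed the filter on low counts. The libraries came from 24 male C57BL6/J mice, 6 per diet, whose diets started at an age of 5 weeks and lasted 12 weeks, with tissue taken at 4 months after 4 h without food. A pair of diets was methionine restricted (MR): elemental amino acids with 0.17% methionine (elemental MR) and casein whose methionine was destroyed by oxidation and then added back to 0.17% (oxidized casein MR). Each was set against a diet of the same protein source with 0.86% methionine, called elemental control and casein control. On casein, oxidation of the protein and the methionine level therefore changed together and cannot be told apart. The series design text speaks of the liver, whereas its title, the samples' source and the extraction protocol name IWAT. All 8 white adipocyte markers were read in every library, with summed levels of 28975 to 80099 CPM, reads scaled to a library of 1e+06. The 5 hepatocyte markers were also read in every library, with summed levels of 55.2 to 7495 CPM. Their highest level was on elemental control, and no library of another diet was above 1147 CPM. The source of these hepatocyte transcripts was not tested.

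In an adipocyte, noradrenaline from sympathetic nerves binds β-adrenergic receptors, whose stimulatory G protein switches on adenylyl cyclase. The cAMP it makes frees the catalytic subunits of PKA from their regulatory subunits, and PKA phosphorylates the lipid droplet coat protein perilipin and hormone-sensitive lipase to start lipolysis, and in brown and beige adipocytes also drives heat production. The α2-adrenergic receptors act through an inhibitory G protein, phosphodiesterases break cAMP down, and A-kinase anchoring proteins hold PKA at particular places in the cell.

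In this tissue MR went with more transcript of an adenylyl cyclase and of a mitochondrial PKA anchor, while the β3-adrenergic receptor, the typical adipocyte receptor of the pathway, did not pass the test in any comparison. Akap1 and Adcy3 were higher on MR with each protein source, and Prkar2b was higher when the MR effects of both protein sources were averaged. The start regions of these genes are shown first so that the genes that passed with each protein source can be read beside the receptors. RefSeq promoter windows on GRCm38.p6, from 250 bases before to 50 bases after a listed start, were found for 6 of the 9 genes. Adrb3, Adcy6 and Pde3b had no entry there. The windows of Akap1 and Adcy3 follow, 5′ to 3′ along the gene's own strand, with the 50 bases from the listed start onward in capitals.
Akap1: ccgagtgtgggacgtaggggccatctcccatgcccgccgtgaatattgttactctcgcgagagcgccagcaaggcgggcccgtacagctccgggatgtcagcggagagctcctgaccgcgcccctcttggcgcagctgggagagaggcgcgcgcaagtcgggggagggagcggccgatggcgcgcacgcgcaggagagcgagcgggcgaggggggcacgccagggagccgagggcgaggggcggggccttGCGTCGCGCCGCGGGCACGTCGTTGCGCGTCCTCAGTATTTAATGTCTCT
Adcy3: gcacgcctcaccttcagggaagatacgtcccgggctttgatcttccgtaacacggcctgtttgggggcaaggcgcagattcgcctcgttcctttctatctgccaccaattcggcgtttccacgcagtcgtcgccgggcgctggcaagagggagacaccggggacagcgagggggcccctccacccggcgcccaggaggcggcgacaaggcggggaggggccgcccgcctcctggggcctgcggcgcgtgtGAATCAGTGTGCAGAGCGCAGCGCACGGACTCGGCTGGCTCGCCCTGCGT
The Akap1 window was chr11:88864537-88864836 on the minus strand and the Adcy3 window was chr12:4133147-4133446 on the plus strand. Each is the window nearest the gene's annotated 5′ end, and RefSeq lists further starts for both genes. The windows of the receptors Adra2a (chr19:54045009-54045308, plus strand) and Adrb1 (chr19:56721867-56722166, plus strand) are shown with the core letters of the cAMP response element, TGACG, in capitals.
Adra2a: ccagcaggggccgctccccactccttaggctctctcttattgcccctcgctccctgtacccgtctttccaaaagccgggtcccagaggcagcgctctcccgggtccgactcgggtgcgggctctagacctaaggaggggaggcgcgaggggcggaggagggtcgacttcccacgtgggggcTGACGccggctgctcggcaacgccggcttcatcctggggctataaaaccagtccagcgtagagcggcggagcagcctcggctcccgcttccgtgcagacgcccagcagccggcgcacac
Adrb1: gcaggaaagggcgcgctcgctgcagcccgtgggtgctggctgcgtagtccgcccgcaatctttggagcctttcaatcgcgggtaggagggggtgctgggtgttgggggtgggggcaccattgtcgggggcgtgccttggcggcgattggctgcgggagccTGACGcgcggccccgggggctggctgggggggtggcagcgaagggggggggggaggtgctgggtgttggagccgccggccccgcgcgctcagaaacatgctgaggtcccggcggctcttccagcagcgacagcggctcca
The letters TGACG begin 69 bases before the listed start of Adra2a and 90 bases before that of Adrb1. On either strand they are found in 20.8% of the 32851 RefSeq windows of this length. The windows of Akap1, Adcy3, Prkar2b and Adcy5 held neither these letters nor the full element TGACGTCA, which contains them and is in 1.79% of all windows. None of the 6 genes' windows held the estrogen-related receptor motif CAAGGTCA, which is in 1.56% of all windows, or the strict PPAR DR1 motif, which is in 0.0396%. The letters are a description of these windows only.

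Levels are CPM of 3′-end counts, with library totals scaled by edgeR's TMM method. A 3′ count does not grow with transcript length. Library totals ran from 7468336 to 19868913 reads. The tissue pieces differed in what they held. Of the 24 libraries, 15 carried transcripts of lymph node B cells (mean marker level 4.57 to 6.27 log2 CPM) and 9 did not (-0.80 to 2.49 log2 CPM). Libraries with lymph node transcripts numbered 5 of 6 on elemental MR, 4 of 6 on elemental control, 2 of 6 on oxidized casein MR and 4 of 6 on casein control. The libraries elemental MR 2 (1239 CPM) and elemental control 2 (2946 CPM) were rich in the skeletal muscle actin Acta1. The 7 brown and beige adipocyte markers, Ucp1, Cidea, Elovl3, Cox8b, Cox7a1, Dio2 and Kcnk3, were all in the table. Their summed level was 3233 to 6293 CPM on elemental MR, against 367 to 3645 CPM on elemental control. On casein it was 938 to 4292 CPM on oxidized casein MR, against 239 to 1319 CPM on casein control. This marker level moved with MR beside the results that follow, and its part in them was not tested. In bulk tissue, fewer cells of a type and less RNA per cell cannot be told apart.

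**Figure D1:**
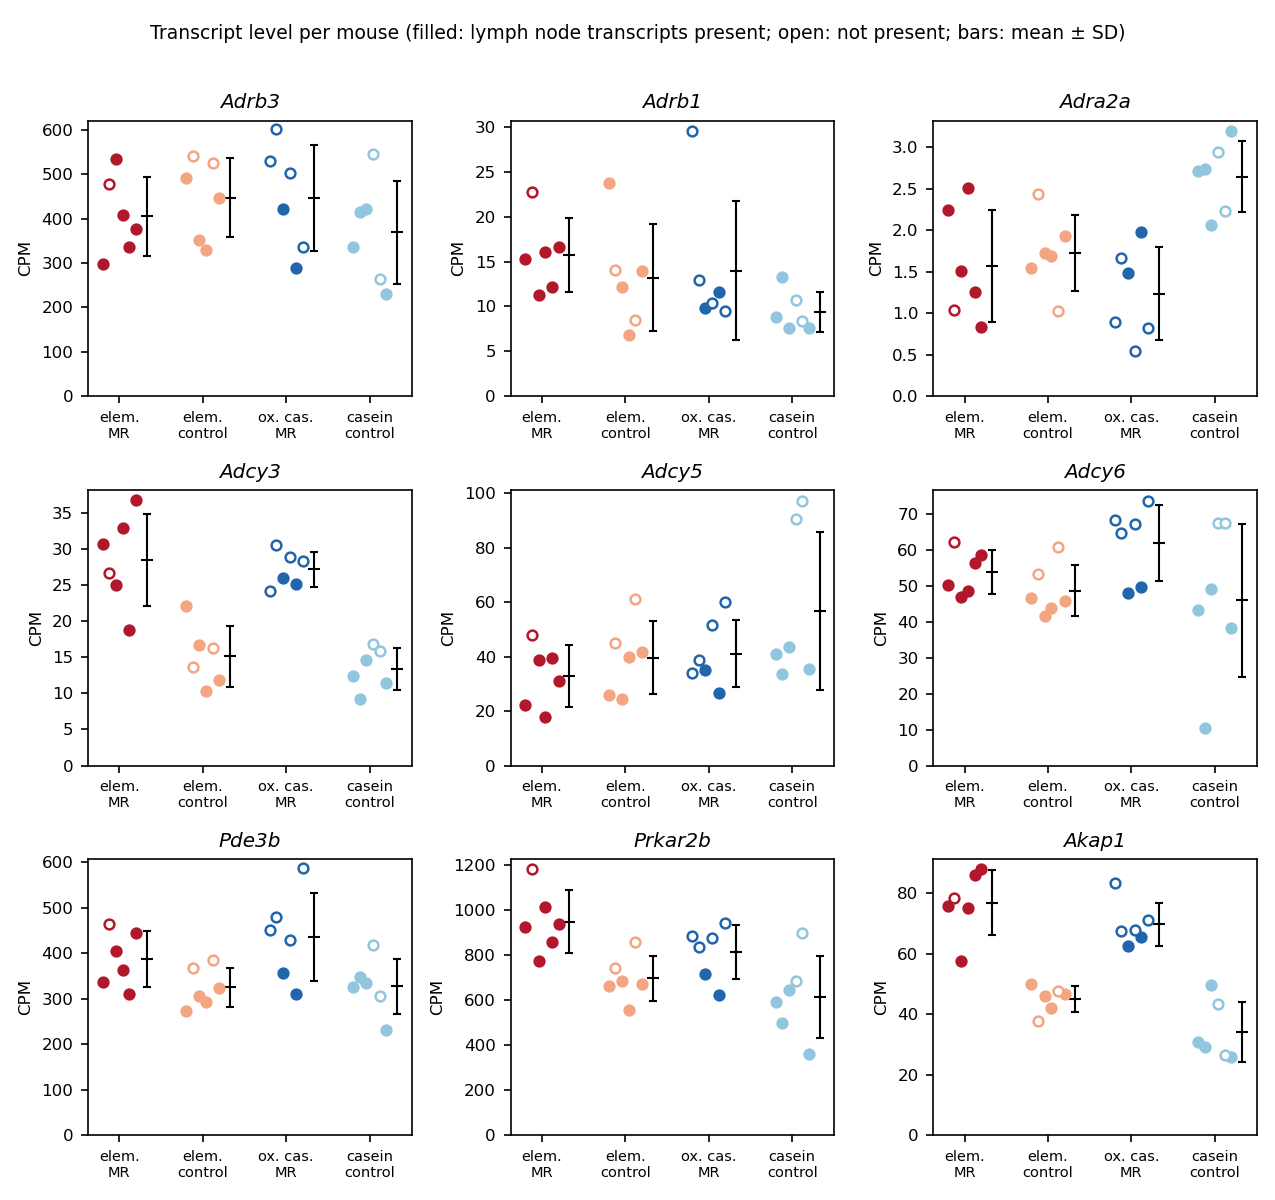
Transcript level (CPM, vertical axes from 0) of the 9 genes in each mouse, by diet; each circle is 1 mouse, filled where lymph node transcripts were present and open where they were not, and bars give the mean ± SD of 6 mice. Every Akap1 circle on an MR diet, 57.7 CPM or more, lies above every control circle, 49.9 CPM or less.

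The receptors stand first in the pathway. Adrb3 encodes the β3-adrenergic receptor, the main β receptor of rodent adipocytes, and was the most abundant receptor of the 3. Its level had a minimum of 298, a median of 392 and a maximum of 534 CPM on elemental MR, against 328, 469 and 541 CPM on elemental control. On casein the same values were 288, 461 and 602 CPM on oxidized casein MR, against 231, 376 and 545 CPM on casein control. The groups overlapped over most of their range with both protein sources. The log2 fold change was -0.14 ± 0.21 (SE) on elemental amino acids (edgeR adjusted p = 0.943) and 0.28 ± 0.21 on casein (adjusted p = 0.549). Averaged over protein sources it was 0.07 with a 95% interval of -0.22 to 0.35, and the adjusted p was 0.852. The Adrb3 mean was higher without lymph node transcripts in every diet, at 492 CPM against 354 CPM with them on oxidized casein MR. Among the 15 libraries with lymph node transcripts its casein value was -0.00452 (edgeR adjusted p = 0.997).

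Adrb1 encodes the β1-adrenergic receptor and stood far lower. It had 11.3, 15.7 and 22.8 CPM (lowest, median and highest) on elemental MR, against 6.85, 13.1 and 23.8 CPM on elemental control. With casein the values were 9.50, 11.0 and 29.6 CPM on oxidized casein MR, against 7.57, 8.63 and 13.2 CPM on casein control. The groups overlapped, and the 29.6 CPM came from a single mouse, oxidized casein MR 1. The edgeR log2 fold change was 0.25 ± 0.28 on elemental amino acids (adjusted p = 0.889) and 0.57 ± 0.29 on casein (adjusted p = 0.336), and neither passed the threshold of 0.05. Without that mouse the casein value was 0.20 with an adjusted p of 0.796.

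Adra2a encodes the α2A-adrenergic receptor, which restrains cAMP production, and was the scarcest of the 9 genes. On casein it had 0.547, 1.19 and 1.98 CPM on oxidized casein MR, against 2.06, 2.72 and 3.19 CPM on casein control. All 6 oxidized casein MR mice lay below all 6 casein control mice, a separation downward that 0.422% of the 15176 tested genes showed in this comparison. These levels rest on 4 to 25 reads per library on oxidized casein MR and 25 to 44 reads on casein control. The log2 fold change of -1.07 ± 0.31 just missed the threshold (edgeR adjusted p = 0.0571). It passed with DESeq2 (adjusted p = 0.0245), without the muscle-rich libraries (0.0480), and in 6 of the 24 edgeR fits that left out 1 library. Those 6 left out elemental MR 4 (0.0455) or 6 (0.0431), elemental control 2 (0.0465), oxidized casein MR 2 (0.0480) or 5 (0.0319), or casein control 5 (0.0485). It did not pass with limma voom (0.0567), with a lymph node term (0.0522) or with only the casein groups fitted (0.102). In the 15 libraries with lymph node transcripts the value was -0.64 (adjusted p = 0.688), and in the 9 without them -1.28 (0.306). On elemental amino acids Adra2a had 0.834, 1.38 and 2.51 CPM on MR, against 1.03, 1.70 and 2.44 CPM on control. These groups overlapped, and the log2 fold change was -0.13 ± 0.31 (adjusted p = 0.990). The difference between the casein and the elemental MR effect was -0.94 with a 95% interval of -1.80 to -0.08. Its unadjusted p was 0.0430 and its adjusted p 0.910, so a difference between protein sources was not shown.

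The adenylyl cyclases make the cAMP. Adcy3, a membrane cyclase that adipocytes express, was nearly doubled on MR. It had 18.7, 28.7 and 36.8 CPM (lowest, median and highest) on elemental MR, against 10.3, 14.9 and 22.1 CPM on elemental control. The 2 groups overlapped in 1 mouse each: elemental MR 5 at 18.7 CPM lay below elemental control 1 at 22.1 CPM. On casein Adcy3 had 24.1, 27.2 and 30.5 CPM on oxidized casein MR, against 9.20, 13.5 and 16.9 CPM on casein control. Every oxidized casein MR mouse lay above every casein control mouse, as did 2.27% of all tested genes. The log2 fold change was 0.92 ± 0.18 on elemental amino acids, 1.89-fold higher on MR (edgeR adjusted p = 0.0211), and 1.02 ± 0.18 on casein, 2.02-fold higher on MR (adjusted p = 0.00313).

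Averaged over protein sources, Adcy3 was 1.95-fold higher on MR (log2 fold change 0.97 ± 0.12, adjusted p = 6.29e-05). The casein call and the averaged call were made in all 24 edgeR fits that left out 1 library. The elemental call was lost in 6 of them, with log2 fold changes of 0.82 to 0.94. These left out elemental MR 4 (adjusted p = 0.0711) or 6 (0.0733), or elemental control 2 (0.0605), 4 (0.0712), 5 (0.0653) or 6 (0.0680). The elemental Adcy3 call was also lost with only the elemental groups fitted (0.92, adjusted p = 0.0895). Adcy3 (chromosome 12, 4133103 to 4213525 of GRCm38, plus strand) shares 1380 exon bases near its 3′ end with Cenpo, a centromere protein gene on the other strand. The counting strand is not given in the sources used here, so reads of the shared bases cannot be assigned with certainty. The same holds for 839 exon bases that Adrb3 shares with the antisense gene Gm45470 and 605 that Adcy6 shares with Gm29331, which have no rows in the tables used here. Cenpo had 1.79 to 6.27 CPM over the 24 libraries, and its averaged MR log2 fold change was -0.20 (adjusted p = 0.646).

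Adcy5 and Adcy6, closely related cyclases that calcium inhibits, did not pass the test in any comparison. Adcy5 had 17.6, 34.9 and 48.0 CPM on elemental MR, against 24.5, 40.7 and 61.0 CPM on elemental control. In the casein groups it had 26.7, 36.9 and 60.1 CPM on oxidized casein MR, against 33.5, 42.1 and 97.2 CPM on casein control. The high end of the casein control group was made by 2 mice without lymph node transcripts, at 90.5 and 97.2 CPM, against 33.5 to 43.4 CPM in the 4 with them. The fitted log2 fold change was -0.27 ± 0.30 on elemental amino acids (adjusted p = 0.884) and -0.47 ± 0.30 on casein (adjusted p = 0.469). With lymph node presence as a term in the model, the casein value was -0.65 and passed (adjusted p = 0.0478). In the 9 libraries without lymph node transcripts it was -0.97 (adjusted p = 0.0481), and in the 15 with them -0.33 (adjusted p = 0.792).

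Adcy6 had 46.9, 53.2 and 62.2 CPM on elemental MR, against 41.5, 46.2 and 60.7 CPM on elemental control. On casein it had 47.9, 65.9 and 73.4 CPM on oxidized casein MR, against 10.5, 46.1 and 67.3 CPM on casein control. Within every diet its libraries without lymph node transcripts lay above those with them. The value of 10.5 CPM, 96 reads, belonged to the single library casein control 2, whose nearest neighbour in the group had 38.1 CPM. The log2 fold change was 0.14 ± 0.25 on elemental amino acids (adjusted p = 0.971) and 0.43 ± 0.25 on casein (adjusted p = 0.422). Without casein control 2 the casein value was 0.22.

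Pde3b encodes the phosphodiesterase through which insulin lowers cAMP in adipocytes. It had 311, 384 and 465 CPM (lowest, median and highest) on elemental MR, against 274, 315 and 384 CPM on elemental control. For casein the values were 310, 440 and 588 CPM on oxidized casein MR, against 232, 330 and 418 CPM on casein control. The MR medians were above the control medians, with overlap in both comparisons. The edgeR log2 fold change was 0.25 ± 0.15 on elemental amino acids (adjusted p = 0.612) and 0.41 ± 0.15 on casein (adjusted p = 0.147). Averaged over protein sources it was 0.33 ± 0.11 and just missed the threshold (edgeR adjusted p = 0.0604). That averaged value passed with DESeq2 (adjusted p = 0.0201) and in the model with a lymph node term (0.0157). It also passed in 4 of the 24 edgeR fits that left out 1 library. Those 4 left out elemental MR 5 (0.0489), casein control 4 (0.0339) or oxidized casein MR 3 (0.0496) or 5 (0.0271). The averaged Pde3b value did not pass with limma voom (0.0636) or without the muscle-rich libraries (0.107). It also missed in edgeR with DESeq2 size factors (0.0515) or with no filter on low counts (0.0739). In every diet its mean was higher in the libraries without lymph node transcripts, at 487 CPM against 333 CPM in those with them on oxidized casein MR, the diet with most such libraries. In the 15 libraries with lymph node transcripts the averaged value was 0.20 (adjusted p = 0.420) and the casein value 0.0863 (0.927). In the 9 without them the values were 0.43 (0.197) and 0.49 (0.230). A model with a lymph node term gave 0.28 on casein (0.189).

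Prkar2b encodes RIIβ, the regulatory subunit of PKA that is typical of adipose tissue, and was the most abundant of the 9 genes. It had 772, 930 and 1181 CPM on elemental MR, against 554, 677 and 858 CPM on elemental control. On casein it had 623, 854 and 942 CPM on oxidized casein MR, against 360, 617 and 896 CPM on casein control. The MR mice sat higher but overlapped the controls with both protein sources. The log2 fold change was 0.45 ± 0.17 on elemental amino acids (adjusted p = 0.311) and 0.41 ± 0.17 on casein (adjusted p = 0.213), and neither passed alone. Averaged over protein sources it was 0.43 ± 0.12, 1.34-fold higher on MR, and passed (edgeR adjusted p = 0.0267). The averaged call was lost without elemental control 4 or without the muscle-rich libraries (adjusted p = 0.051 each), and in the 15 libraries with lymph node transcripts (0.0851) or the 9 without them (0.158), where the values were 0.41 and 0.42. On elemental amino acids it passed with lymph node presence as a term (0.52, adjusted p = 0.0284), and on casein without casein control 5 (0.55, adjusted p = 0.0427). With that term the averaged value was 0.40 (0.00174), but the casein value fell to 0.28 (0.190). On casein it was 0.34 in the libraries with lymph node transcripts (0.607) and 0.22 in those without them. In every diet the Prkar2b mean was higher in the libraries without lymph node transcripts. On oxidized casein MR it was 883 CPM without them and 669 CPM with them.

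Akap1 encodes the anchoring protein that holds PKA at the outer mitochondrial membrane. It had the smallest p of the 9 genes in all 3 MR comparisons, and ranked 3 among all 15176 genes by p-value on casein. On elemental amino acids it had 57.7, 77.0 and 88.0 CPM (lowest, median and highest) on MR, against 37.6, 46.4 and 49.9 CPM on control. In the casein groups it had 62.7, 67.7 and 83.3 CPM on oxidized casein MR, against 25.8, 29.9 and 49.6 CPM on casein control. Every MR mouse lay above every control mouse with each protein source. Of all tested genes, 0.573% separated that way on elemental amino acids and 2.27% on casein. The fitted log2 fold change was 0.77 ± 0.14 on elemental amino acids, 1.71-fold higher on MR (edgeR adjusted p = 0.0200), and 1.03 ± 0.14 on casein, 2.04-fold higher on MR (adjusted p = 0.000730).

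Averaged over protein sources, Akap1 was 1.87-fold higher on MR (log2 fold change 0.90 ± 0.10, adjusted p = 2.43e-05). The casein call and the averaged call were made in all 24 fits that left out 1 library. The elemental call was lost in 5 of them, with log2 fold changes of 0.72 to 0.79. These left out elemental MR 4 (adjusted p = 0.0597) or 6 (0.0721), or elemental control 2 (0.0623), 4 (0.0712) or 5 (0.0508). Without both muscle-rich libraries the elemental calls of Akap1 (0.70, adjusted p = 0.102) and Adcy3 (0.88, adjusted p = 0.0879) were lost. In the model that also held lymph node presence both elemental calls stood (0.78 and 0.94, adjusted p = 0.00575 each). In the 15 libraries with lymph node transcripts alone, neither gene passed with a single protein source. There the Akap1 values were 0.73 on elemental amino acids (adjusted p = 0.119) and 0.91 on casein (0.117), and the Adcy3 values were 0.94 (0.128) and 1.08 (0.181). Both muscle-rich libraries, elemental MR 2 and elemental control 2, were without lymph node transcripts. In the 9 libraries without them, the elemental comparison had 1 MR mouse, elemental MR 2, assumed to vary like the other groups. The elemental values there were 0.94 for Akap1 (adjusted p = 0.486) and 0.90 for Adcy3 (0.377), and the casein values were 1.11 (0.0330) and 0.83 (0.0416).

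**Figure D2:**
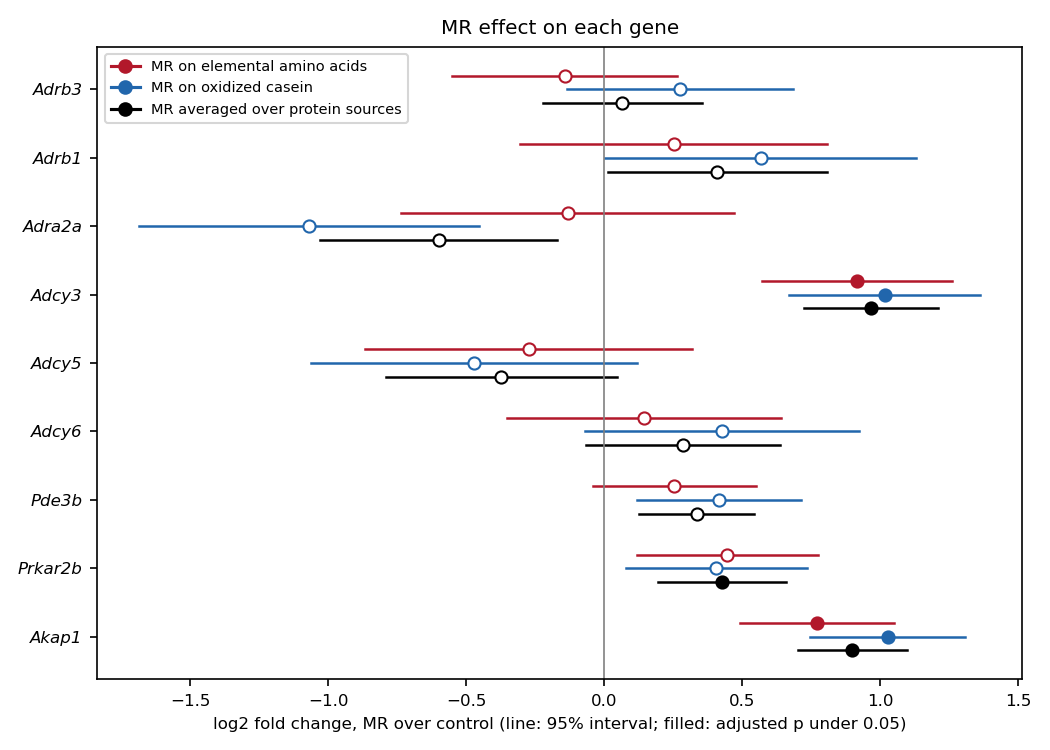
Log2 fold change of MR over control (horizontal axis) for the 9 genes on elemental amino acids (red), on casein (blue) and averaged over protein sources (black). Lines are approximate 95% intervals built from the SE and the normal distribution, and filled circles have an edgeR adjusted p under 0.05. Adcy3 and Akap1 are filled in all 3, Prkar2b in the average alone, and the Adra2a interval on casein, -1.68 to -0.45, lies below 0 without passing.

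As the plot of the MR effects shows, 2 of the 9 genes passed on elemental amino acids, both higher on MR, where 0.244% of all tested genes passed. On casein 2 of the 9 passed, both higher on MR, where 3.82% of all tested genes passed. Averaged over protein sources 3 of the 9 passed, all higher on MR, where 6.99% of all tested genes passed. The genes passing were Akap1 and Adcy3 in each comparison, joined by Prkar2b in the average. The median log2 fold change of the 9 genes was 0.25 on elemental amino acids, 0.41 on casein and 0.33 averaged, beside medians over all tested genes of -0.02, -0.06 and -0.07. In the average 7 of the 9 values were above 0, and those of Adra2a (-0.60 ± 0.22, adjusted p = 0.108) and Adcy5 (-0.37 ± 0.21, adjusted p = 0.368) were below. The 9 genes were chosen with earlier results of these data known. Nothing particular to the pathway is therefore read from these counts or medians.

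The protein source made no difference that passed. When the casein MR effect was tested against the elemental one, 0 of the 9 genes passed with edgeR, DESeq2 or limma voom, and Adra2a alone had an unadjusted p under 0.05 with each. For Akap1 the difference between the MR effects was 0.26 with a 95% interval of -0.14 to 0.65, and for Adcy3 it was 0.10 with an interval of -0.38 to 0.58. A p that misses the threshold does not show that the effects were alike. Of all genes 0% passed this test in edgeR.

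Between casein control and elemental control, 0 of the 9 genes passed with edgeR, where 0.659% of all genes passed, and 0 passed with DESeq2 or limma voom. The gene with an unadjusted edgeR p under 0.05 was Akap1, at 34.2 ± 9.87 CPM on casein control and 45.0 ± 4.44 CPM on elemental control (SD, n = 6 each; log2 fold change -0.40 ± 0.14, unadjusted p = 0.0101, adjusted p = 0.214). Between oxidized casein MR and elemental MR, 0 of the 9 passed with any of the 3 tools, where 0% of all genes passed with edgeR, and none had an unadjusted edgeR p under 0.05. Akap1 averaged 69.7 ± 7.22 CPM on oxidized casein MR and 76.8 ± 10.8 CPM on elemental MR (SD, n = 6 each), and the log2 fold change of -0.14 had an interval of -0.42 to 0.14. In order of mean level, Akap1 thus ran from elemental MR through oxidized casein MR and elemental control down to casein control. The MR diets did not differ past the threshold, nor did the control diets, while each MR diet stood above its own control. Adcy3 ran in the same order, at 28.5 ± 6.37 CPM on elemental MR, 27.2 ± 2.45 CPM on oxidized casein MR, 15.1 ± 4.22 CPM on elemental control and 13.4 ± 2.89 CPM on casein control (SD, n = 6 each).

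**Figure D3:**
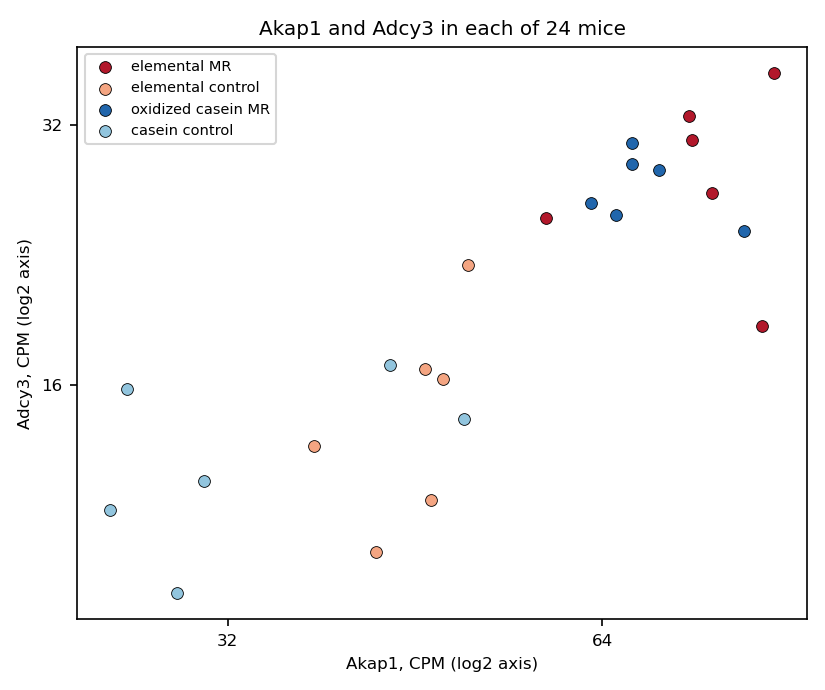
Akap1 (horizontal) and Adcy3 (vertical) level in CPM on log2 axes for each of the 24 mice, coloured by diet. The 12 MR mice lie at 57.7 to 88.0 CPM of Akap1 and 18.7 to 36.8 CPM of Adcy3, and the 12 control mice at 25.8 to 49.9 and 9.20 to 22.1 CPM.

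The plot of Akap1 against Adcy3 shows that the MR mice lie together at the upper end of both genes and the control mice at the lower end. The exception among MR mice was elemental MR 5, with 86.0 CPM of Akap1, the second highest, and 18.7 CPM of Adcy3, the lowest of any MR mouse. Casein control 5 had 26.6 CPM of Akap1, the second lowest, and 15.8 CPM of Adcy3, well inside the control range.

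The genes whose levels ran most like each gene that passed were found by Pearson's r of log2 CPM over the 24 libraries, after the means of the libraries with and without lymph node transcripts had been taken out. The diet differences stay in this measure, so it is a description only. Closest to Akap1 were Eci1 (r = 0.933), Fuom (0.928) and Etfdh (0.926). Closest to Adcy3 were Dbt (0.933), Acot2 (0.915) and Eci1 (0.904). Closest to Prkar2b were Fam234a (0.931), Tgoln1 (0.928) and Pnpla8 (0.925). Eci1, close to both Akap1 and Adcy3, had 228, 253 and 348 CPM (lowest, median and highest) on elemental MR, against 123, 176 and 237 CPM on elemental control. On casein it had 228, 250 and 307 CPM on oxidized casein MR, against 92.4, 122 and 165 CPM on casein control.

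The rest of the pathway was read from a list of 104 further genes, of which 93 were in the table and 90 were tested. On elemental amino acids 0 of the 90 passed with edgeR, where 0.244% of all tested genes did (9 had an unadjusted p under 0.05). With DESeq2 2 passed, higher on MR, where 1.46% of all tested genes did. With limma voom 1 passed, also higher, where 0.349% did. On casein 5 of the 90 were higher and 0 lower on MR with edgeR, where 3.82% of all tested genes passed. The counts were 7 and 2 with DESeq2, where 6.11% passed, and 4 and 1 with limma voom, where 3.64% passed. With a lymph node term the casein counts were 8 higher and 4 lower, where 7.38% of all tested genes passed. With only the casein groups fitted they were 2 and 0 of 86, where 2.45% passed. Leaving out single libraries gave 1 to 7 higher and 0 to 2 lower, where 2.06% to 5.41% passed. In the average 8 were higher and 2 lower on MR with edgeR, where 6.99% of all tested genes passed. The averaged counts were 9 and 2 with DESeq2, where 9.38% passed, and 8 and 2 with limma voom, where 6.94% passed. With a lymph node term they were 11 and 5, where 12.8% passed. Nothing particular to the list is read from these counts. The list's median log2 fold change was -0.03 on elemental amino acids, 0.02 on casein and -0.04 averaged, close to the medians of all tested genes. No gene of the list passed when the MR effects of the protein sources were compared (2 had an unadjusted p under 0.05) or between the MR diets (3 did) with edgeR, DESeq2 or limma voom. Between the control diets none passed with edgeR or limma voom (9 had an unadjusted edgeR p under 0.05). With DESeq2, where 2.75% of all tested genes passed, 1 gene of the list did, lower on casein control.

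**Figure D4:**
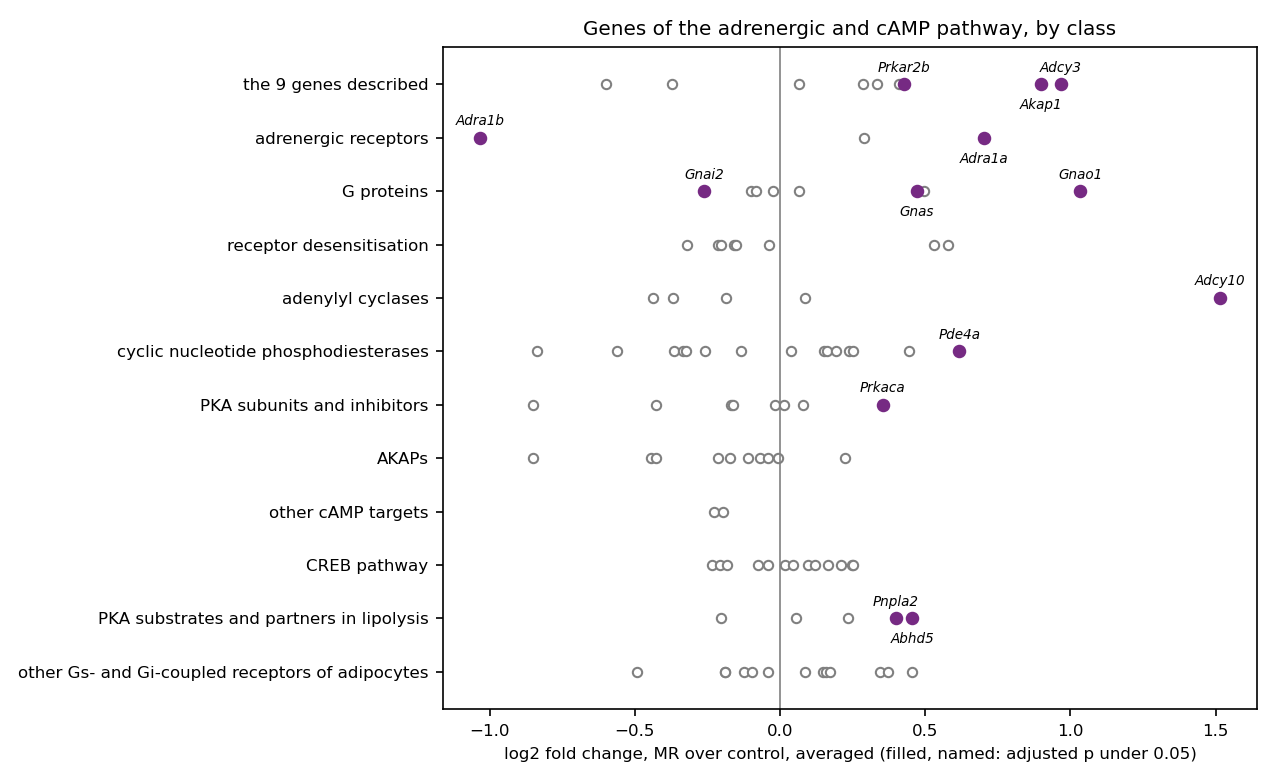
Log2 fold change of MR over control averaged over protein sources (horizontal axis) for the 9 genes and for the 90 tested genes of the rest of the pathway, in rows by class; filled, named circles have an edgeR adjusted p under 0.05. Filled circles lie in 6 of the 11 further classes, and Adra1b and Gnai2 are the only ones below 0.

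Among the other adrenergic receptors, the Gq-coupled α1 receptors moved in opposite directions in the average. Adra1a was higher on MR (0.70 ± 0.18, adjusted p = 0.0132) and Adra1b was lower (-1.03 ± 0.25, adjusted p = 0.00959). Adra1a had median levels of 18.1 CPM on elemental MR, 10.7 CPM on elemental control, 15.0 CPM on oxidized casein MR and 9.94 CPM on casein control. Adra1b had medians of 2.96 CPM on elemental MR, 4.74 CPM on elemental control, 1.94 CPM on oxidized casein MR and 4.34 CPM on casein control. Both genes were scarce, and the values of each overlapped between MR and control with both protein sources. Adra1b rested on 14 to 51 reads per library on elemental MR, against 41 to 154 on elemental control. On casein it had 6 to 49 reads on oxidized casein MR, against 38 to 76 on casein control.

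Of the 8 G protein genes, Gnas and Gnao1 were higher and Gnai2 lower on MR in the average. Gnas encodes the stimulatory α subunit that couples β receptors to the cyclases, and had 923, 1252 and 1576 CPM (lowest, median and highest) on elemental MR, against 788, 921 and 1066 CPM on elemental control. On casein its values were 917, 1114 and 1358 CPM on oxidized casein MR, against 555, 869 and 1013 CPM on casein control. Its averaged log2 fold change was 0.47 ± 0.11 (adjusted p = 0.00648). Gnai2, an inhibitory α subunit also abundant in immune cells, had an averaged value of -0.26 ± 0.08 (adjusted p = 0.0453), and -0.16 (adjusted p = 0.463) in the 15 libraries with lymph node transcripts. The 5 macrophage markers had median summed levels of 467 CPM on elemental MR, 580 CPM on elemental control, 342 CPM on oxidized casein MR and 612 CPM on casein control, and their part in the Gnai2 value was not tested. Gnao1, the α subunit of Go, had 1.03 ± 0.18 (adjusted p = 0.000804). Gnao1 had 16.0, 22.4 and 39.2 CPM on oxidized casein MR, against 7.81, 11.6 and 14.7 CPM on casein control. The groups did not overlap, an upward separation that 2.27% of all tested genes showed. Gnao1 passed there too (1.11, adjusted p = 0.0119).

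Of the 5 other cyclases tested, Adcy10, the soluble bicarbonate-activated cyclase, was 4.01-fold higher on MR on casein (adjusted p = 0.0207) and in the average (1.52 ± 0.34, adjusted p = 0.00534). It was scarce, at 1.86, 3.10 and 6.95 CPM on oxidized casein MR, against 0.191, 0.854 and 1.64 CPM on casein control, or 18 to 47 and 3 to 16 reads per library. Of 15 genes for phosphodiesterases and for the PDE3B partner Abhd15, Pde4a, a cAMP-specific enzyme, was higher on MR on casein (0.63 ± 0.17, adjusted p = 0.0393) and in the average (0.62 ± 0.12, adjusted p = 0.00238). Of the 8 other PKA subunit and inhibitor genes, Prkaca, the main catalytic subunit, was higher in the average (0.35 ± 0.09, adjusted p = 0.0191). It averaged 215 ± 31.7 CPM on elemental MR, 180 ± 24.7 CPM on elemental control, 188 ± 22.8 CPM on oxidized casein MR and 138 ± 26.8 CPM on casein control (SD, n = 6 each).

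None of the 10 other anchoring protein genes tested passed with edgeR in any comparison, or in the average with DESeq2 or limma voom. The same held for the 4 other classes described next. In the average 1 of the 10 had an unadjusted p under 0.05. The most abundant of them, Akap13 and Akap9, had averaged values of -0.21 (adjusted p = 0.521) and -0.04 (adjusted p = 0.831). Of the 8 genes of receptor desensitisation 0 passed and 3 had an unadjusted p under 0.05, with Rgs2, a regulator of G protein signalling, at 0.58 (adjusted p = 0.164) and Grk2, a receptor kinase, at -0.16 (adjusted p = 0.745). Of the 13 genes of the CREB pathway, which carries cAMP signals to transcription, 0 passed and 3 had an unadjusted p under 0.05. Its coactivator Crebbp had -0.08 (adjusted p = 0.726) and the kinase Sik2 had 0.25 (adjusted p = 0.255). The cAMP-activated exchange factors Rapgef3 and Rapgef4 did not pass (adjusted p = 0.646 and 0.593). Of the 13 other receptors of adipocytes 0 passed and 1 had an unadjusted p under 0.05, with Ffar2, a short-chain fatty acid receptor, at 0.17 (adjusted p = 0.667) and Adora1, an adenosine receptor, at 0.09 (adjusted p = 0.730).

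Of the 5 genes through which PKA acts on lipolysis, Pnpla2 and Abhd5 were higher on MR on casein and in the average. Pnpla2, adipose triglyceride lipase, averaged 1773 ± 314 CPM on oxidized casein MR and 1236 ± 264 CPM on casein control (SD, n = 6 each; 0.52 ± 0.15, adjusted p = 0.0467). Abhd5, the coactivator of that lipase, averaged 121 ± 16.7 CPM on oxidized casein MR and 79.8 ± 25.8 CPM on casein control (0.60 ± 0.16, adjusted p = 0.0365). On elemental amino acids both missed the threshold (0.28, adjusted p = 0.544, and 0.31, adjusted p = 0.541). In the average their values were 0.40 (adjusted p = 0.0181) and 0.46 (adjusted p = 0.0147). Lipe, hormone-sensitive lipase, and Plin1, perilipin, named here after their values were seen, did not pass in the average (0.23, adjusted p = 0.259, and 0.06, adjusted p = 0.833).

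Of the 10 pathway genes that passed in the average, 9 did so in all 24 edgeR fits that left out 1 library. Gnai2 passed in 10 of the 24, with log2 fold changes of -0.27 to -0.23 and adjusted p of up to 0.0729 in the others, and it was also lost without the muscle-rich libraries (0.0853). The 14 libraries whose omission ended its call were elemental MR 2, 4 and 6, elemental control 2 to 6, oxidized casein MR 1 and 4, and casein control 1, 2, 5 and 6. On casein Gnao1 passed in all 24 fits. The Adcy10 call there was lost without oxidized casein MR 1 or casein control 6 (1.68 and 1.85, adjusted p of up to 0.0719) and with limma voom (0.0688). Pde4a passed in 17 of the 24, with the call lost without oxidized casein MR 1, 3 or 4 or casein control 1, 3, 4 or 6 (values of 0.54 to 0.62, adjusted p of up to 0.113), and also with limma voom (0.0561) or only the casein groups fitted (0.0722). Pnpla2 passed in 14, with the call lost without elemental control 5 or 6, oxidized casein MR 1, 2, 4 or 6, or casein control 1, 3, 4 or 6 (values of 0.41 to 0.55, adjusted p of up to 0.105), and with only the casein groups fitted (0.195). Abhd5 passed in 18, with the call lost without oxidized casein MR 1 or 6 or casein control 1, 2, 3 or 6 (values of 0.48 to 0.59, adjusted p of up to 0.1), and with only the casein groups fitted (0.138). In the 15 libraries with lymph node transcripts alone, 2.2% of all tested genes passed in the average. Of the 90 genes, 3 were higher there, namely Gnao1, Pde4a and Abhd5, and 2 genes other than these 10 were lower. In the 9 libraries without them none of the 10 passed in the average. On casein none of the 5 passed in either set of libraries alone. There Pnpla2 had 0.31 with lymph node transcripts (adjusted p = 0.689) and Abhd5 had 0.32 without them (0.324), where its averaged value was 0.22 (0.458).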

How the data were processed

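IWAT of 24 mice was sequenced with QuantSeq, a kit that reads the 3′ end of each transcript (50 bp forward reads), per the labels. The authors deposited raw counts per Ensembl gene. They also deposited a normalized signal table, in which each library's counts were divided by 1 factor, as checked here. DESeq2 1.18.1, R 3.4.3, GRCm38 and mm10 are named per the submitters' processing notes. The sources used here do not give the aligner, the counter or its strand setting. The smallest gene total is 72 reads, a mean of 3 per library. Reads carry no molecular identifiers, so precision rests on the spread between mice. The labels give each library a mouse number of its own and no batch.

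Tests on the raw counts used edgeR 4.0.16 under R 4.3.3 (filterByExpr by diet, 15176 genes kept and 1645 removed, TMM, robust quasi-likelihood F tests, 2-sided, 1 mean per diet over 24 libraries). Adjusted p-values are edgeR's Benjamini-Hochberg values over the 15176 genes, threshold 0.05, unless another tool or an alternative is named, and 6 comparisons were made. Alternatives that changed the libraries or the filter were adjusted over their own tested genes. These numbered 13814 with only the casein groups and 15644 in the libraries with lymph node transcripts. Each SE was derived from the F statistic. Lymph node presence was set by the widest gap in the mean of the B cell markers. Alternatives were DESeq2 1.42.0, limma 3.58.1 voom, DESeq2 size factors, no filter, only the groups compared, lymph node and muscle splits, and leaving out each library. The fit was run on simulated counts with the same dispersion for every gene and no lymph node or muscle differences. That run checks the code and cannot show whether the calls hold in these libraries. The 9 genes and the gene lists were chosen with earlier results of these data known. Named from the pathway list were genes passing in any comparison and, in classes with none, up to 2 of the most abundant; exceptions are marked. Coordinates are from GENCODE M21 on GRCm38.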

Additional observations from a re-analysis of the deposited data

Results flagged for a closer look

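Of the 36 sets of 6 mice (9 genes on 4 diets), 1 held a mouse far from the others by Dixon's criterion, where chance gives about 1 in 20. Adrb1 in oxidized casein MR 1 was 29.59 CPM, and the nearest other mouse of that diet had 12.94 CPM. The gap was 0.829 of the group's range; that is above the 95% critical value for 6 samples.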

How the results depend on the processing

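Directions of the MR effects of Akap1, Adcy3 and Prkar2b were kept under every alternative run, on each protein source and averaged. The number of the 9 genes passing on elemental amino acids, 2, became 1 with only the groups compared fitted, and 0 in the libraries with lymph node transcripts only, in those without them only, and without the muscle-rich libraries. Leaving out single libraries gave 0 to 2, with 0 without elemental MR 4 or 6 or elemental control 2, 4 or 5, and 1 without elemental control 6. On casein the 2 became 0 in the libraries with lymph node transcripts only, and 2 to 4 with single libraries left out, with 4 without casein control 5. The averaged 3 became 2 to 4. Over all genes the number passing on elemental amino acids, 37, was 221 with DESeq2, 166 with a lymph node term and 7 to 252 with single libraries left out. On casein the 579 were 927, 1120 and 316 to 825, and averaged the 1061 were 1423, 1941 and 862 to 1301. In the libraries with lymph node transcripts only, 5 genes passed on elemental amino acids, 5 on casein and 344 averaged, against 0, 172 and 320 in the libraries without them. With only the groups compared fitted, 23 passed on elemental amino acids and 339 on casein, and 8 passed on elemental amino acids without the muscle-rich libraries.

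Signs turned only in values that did not pass. In the libraries with lymph node transcripts only, Adrb3 was -0.0264 averaged, -0.00452 for MR on casein and -0.15 between the MR diets, Adcy6 -0.10, Adra2a 0.0278 and Pde3b -0.17 between the MR diets, and the Pde3b difference between MR effects was -0.23. In the libraries without them only, the control diets differed by 0.11 for Adcy3, 0.22 for Adcy6 and -0.0751 for Pde3b, the MR diets by 0.0427 for Adcy3 and -0.0842 for Adcy5, and the MR effects by -0.0708 for Adcy3, -0.11 for Adcy6 and -0.31 for Adrb1. With a lymph node term, the MR diets differed by -0.0847 for Adcy5, -0.0856 for Adcy6, -0.0448 for Adrb3 and -0.0228 for Pde3b, and the MR effects by -0.0391 for Pde3b. Without the muscle-rich libraries Adra2a was 0.0633 for MR on elemental amino acids, Adrb1 0.0173 between the MR diets, and the Prkar2b difference between MR effects 0.0469; with limma voom that difference was 0.0161. Leaving out single libraries, the difference between MR effects ran from -0.0158 to 0.20 for Adcy3, -0.36 to 0.0248 for Adcy5, -0.0484 to 0.48 for Adrb1 and -0.15 to 0.10 for Prkar2b. The difference between the control diets ran from -0.0722 to 0.0922 for Pde3b and -0.22 to 0.12 for Adcy6, and that between the MR diets from -0.13 to 0.0524 for Adcy3. The cause of these changes was not tested.

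No paired analysis was possible because the labels give mouse numbers and no replicate numbers shared between diets. Low counts limit Adra2a, Adra1b and Adcy10. Diet effects on casein carry the oxidation of the protein as well as the methionine level. Elemental comparisons within 1 lymph node class rest on as few as 1 MR mouse, the muscle-rich elemental MR 2.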
